A study of Mus musculus with 5 samples.

Results

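The matrix metalloproteinases (MMPs) and the tissue inhibitors of metalloproteinases (TIMPs) form the extracellular proteolytic system described here. The members were taken by gene name: 7 MMP genes (Mmp2, Mmp3, Mmp8, Mmp9, Mmp12, Mmp13 and Mmp14) and 3 inhibitor genes (Timp1, Timp2 and Timp3). These 10 genes were read by 16 probes, of 37074 gene names and 56605 probes on the mouse array. All 10 genes were on the array.

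Gene expression was measured on 5 single-colour arrays with 1 array per condition. Liver sinusoidal endothelial cells (LSECs), which line the capillaries of the liver, came from mouse liver of the strain C57BL/6. Tumor endothelial cells (TECs) came from hepatomas grown in the liver from HAK-1B, Hepa1-6 or KYN-2 cells, and the labels give C57BL/6 for all 3. HAK-1B and KYN-2 are lines of human hepatocellular carcinoma, whereas Hepa1-6 was derived from a hepatoma of a mouse, so 1 of the 3 tumors was of the host's species. The fifth array held cultured Hepa1-6 cells, labelled with the strain C57L. No label gives a treatment or a time point, and the methods describe 6-week-old female C57BL/6 or nude mice as hosts. Endothelial cells were taken out with magnetic beads against CD31, and the number of mice behind each RNA was not given in the sources used here. For the arrays the methods name Huh-7 where the labels name HAK-1B, and the labels are followed here.

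MMPs are zinc-dependent enzymes that are made as inactive precursors and cut collagen, elastin, fibronectin and other matrix proteins. Mmp2 and Mmp9 are the gelatinases, Mmp8 and Mmp13 the collagenases, Mmp3 a stromelysin, Mmp12 the macrophage elastase and Mmp14 a membrane-anchored enzyme that activates the precursor of Mmp2. TIMPs bind the active site of these enzymes and block it, and Timp2 also bridges Mmp14 and the precursor of Mmp2. In tumors these enzymes are known for opening the basement membrane around vessels and for freeing growth factors from the matrix.

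Positions of the probes follow the array's design file and refer to mouse build mm9. The probes of Mmp13 (chromosome 9, 7282762 to 7282821), Mmp12 (chromosome 9, 7352935 to 7358618 over 3 probes), Mmp3 (chromosome 9, 7455751 to 7455810) and Mmp8 (chromosome 9, 7567968 to 7568026) lie beside each other in 1 cluster. Mmp9 was read on chromosome 2 (164779091 to 164780679 over 2 probes), Mmp2 on chromosome 8 (95376840 to 95376899) and Mmp14 on chromosome 14 (55058775 to 55058834). Timp1 was read on chromosome X (20451675 to 20451733), Timp2 on chromosome 11 (118163146 to 118178741 over 2 probes) and Timp3 on chromosome 10 (85769407 to 85812100 over 3 probes). The coordinates of the first Mmp9 probe, the second Mmp12 probe and the second Timp2 probe span 1210, 516 and 6778 bases, more than the 60 bases of a probe, so these cross at least 1 intron. No annotation of build mm9 was used, so the exon or untranslated region under each probe is not given.

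The promoters of the chromosome 9 cluster are shown because its genes, although neighbours, differed in how they stood against LSEC. RefSeq promoter windows of build GRCm38.p6, running from 250 bases before to 50 bases after a gene's start, were given for 8 of the 10 members, in 9 windows. Mmp2 and Mmp9 had none. The motif TGANTCA, the core of the binding site of AP-1 (the dimer of Fos and Jun proteins), reads the same on both strands and was searched in each window. It was found in 3 of the 9 windows, those of Mmp13, Mmp3 and 1 of the pair of Mmp12 windows, and in 7.81% of all 32851 promoter windows. The last 90 bases before the start are printed 5′ to 3′, on the plus strand for each of the 5 windows shown, with the motif in capitals. The first Mmp12 window is left out, and Timp1 is added as the inhibitor that differed most from LSEC.
Mmp13, chr9:7272424-7272513: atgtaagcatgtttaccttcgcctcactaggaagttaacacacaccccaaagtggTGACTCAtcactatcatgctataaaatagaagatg
Mmp12, chr9:7347284-7347373: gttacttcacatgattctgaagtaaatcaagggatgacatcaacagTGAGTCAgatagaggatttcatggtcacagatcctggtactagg
Mmp3, chr9:7445732-7445821: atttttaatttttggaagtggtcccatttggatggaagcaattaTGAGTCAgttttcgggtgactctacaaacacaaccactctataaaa
Mmp8, chr9:7558339-7558428: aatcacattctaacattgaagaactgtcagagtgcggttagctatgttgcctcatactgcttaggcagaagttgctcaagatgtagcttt
Timp1, chrX:20870076-20870165: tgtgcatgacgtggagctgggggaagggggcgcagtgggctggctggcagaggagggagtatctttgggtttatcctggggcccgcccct

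The motif began 35 bases before the start in Mmp13, 44 in Mmp12 and 46 in Mmp3. The windows of Mmp8, Mmp14, Timp1, Timp2 and Timp3 did not hold these letters.

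Signals are given as log2 of the background-subtracted spot intensity, quantile normalized over the 5 arrays. A flag of the scanner software says whether a probe was well above background, and where it was not, the true level is known only as an upper bound. The share of probes well above background was 78.1% on the Hepa1-6 TEC array and 44.6% to 57.6% on the other 4. No probe was saturated, and the median coefficient of variation between repeat spots of 1 probe was 2.62% to 3.08% on the 5 arrays. Since each condition had 1 array, no value below has an error between animals. The 3 TEC arrays lay on 1 slide, with the LSEC and cultured cell arrays on a slide each, so that the slide cannot be told apart from the group. In RNA from a mixed preparation, fewer cells of a type and less RNA per cell cannot be told apart either.

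All 12 pan-endothelial markers were well above background on the LSEC array and on the 3 TEC arrays, and 3 of 12 in cultured Hepa1-6 cells. Their summed signal (linear normalized units) was 491826 in LSEC, 72039 to 139496 in the TECs and 4410.3 in the cultured cells. All 15 macrophage markers were also well above background on the LSEC and TEC arrays, as were all 12 hepatocyte markers in LSEC and 8 to 12 of 12 in the TECs. Markers of other cells were thus present on all 4 arrays of endothelial preparations, LSEC included.

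In every comparison with LSEC a gene was called by the rule of size in the study's methods. To be called higher, a gene needs a ratio of 1.5 or more together with a Z-score of 2 or more, and to be called lower a ratio no larger than 0.66 together with a Z-score no larger than -2. The Z-score places a probe's log2 ratio within those of all probes kept, so the fold needed to be called higher differed between the TECs, at 6.79 for KYN-2 TEC, 7.25 for HAK-1B TEC and 11.4 for Hepa1-6 TEC. This is a rule, not a test.

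By this rule 5 of 10 members were higher in HAK-1B TEC than in LSEC (Mmp2, Mmp8, Mmp9, Mmp12 and Timp1) against 3.6% of all genes. Timp3 was the 1 member called lower there, against 4.51% of all genes. In Hepa1-6 TEC 4 members were called higher (Mmp8, Mmp9, Mmp12 and Timp1) against 5.38% of all genes, and 0 lower against 2.68%. In KYN-2 TEC 5 members were called higher (Mmp8, Mmp9, Mmp12, Mmp13 and Timp1) against 4.5%, and 0 lower against 3.52%. The 4 genes Mmp8, Mmp9, Mmp12 and Timp1 were called higher in all 3 TECs, where the share of all genes was 0.65%, and 0 members were called lower in all 3, where it was 1.2%. The 3 comparisons share the LSEC array, so an unusual value on that array would enter each of them. The 10 members were chosen with earlier results of these data known. Values over all genes, here and below, are therefore not an independent background for them. With the Z-score left out of the rule, 7 members were called in all 3 TECs, with Mmp2 and Timp2 higher and Timp3 lower beside those 4. The Timp2 call came from its second probe, while its brightest probe was called lower in Hepa1-6 TEC and KYN-2 TEC. The share of all genes is not given for this setting. Each of 3 other settings left 3 of the 4 called in all 3 TECs: scaling to the 75th percentile lost Timp1 (in Hepa1-6 TEC), presence on both arrays lost Mmp9, which is dim in LSEC, and the brightest probe alone lost Mmp12 (in HAK-1B TEC).

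**Figure D1:**
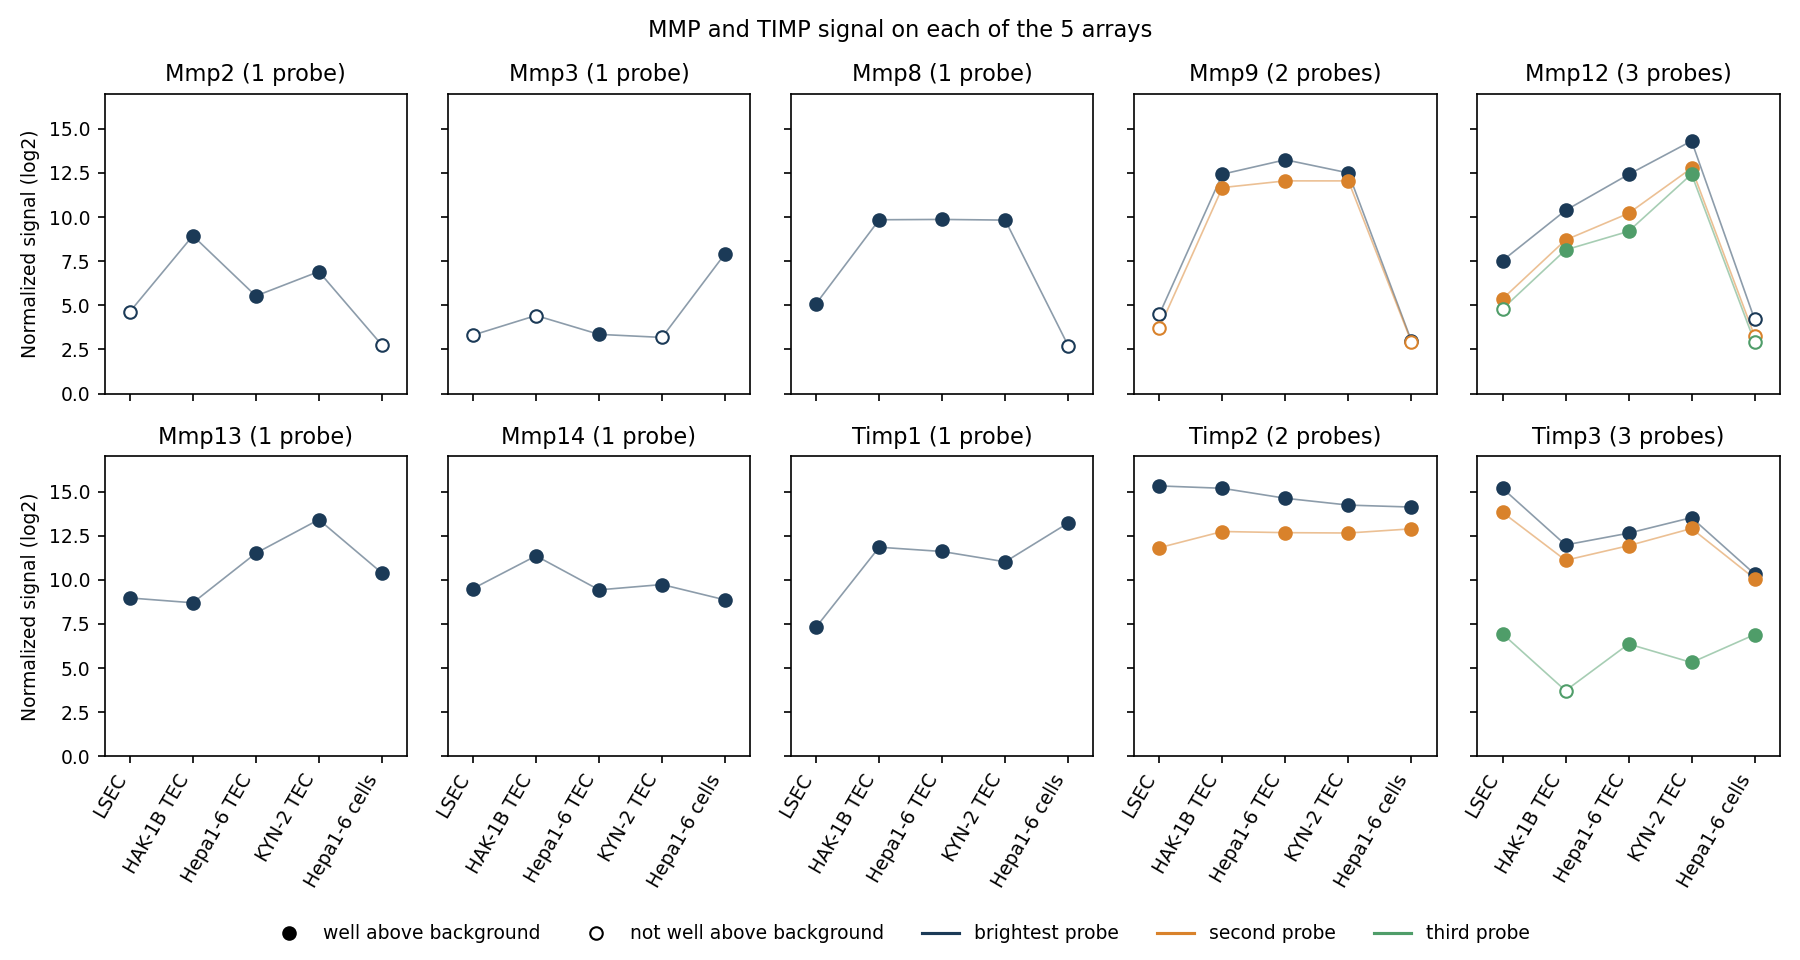
Normalized signal (log2, vertical axis) of each of the 10 genes on the 5 arrays, with 1 line per probe that joins its values and has no meaning of order; filled points were well above background and open points were not. Mmp8, Mmp9, Mmp12 and Timp1 sit higher on the 3 TEC arrays than on the LSEC array, and both upper Timp3 lines sit lower.

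Mmp9, gelatinase B, showed the largest ratio to LSEC among the 10 members in each of the 3 TECs. Its brighter probe had a log2 signal of 4.49 in LSEC, 12.43 in HAK-1B TEC, 13.24 in Hepa1-6 TEC, 12.50 in KYN-2 TEC and 2.99 in cultured Hepa1-6 cells. It was well above background on the 3 TEC arrays and on neither of the others. Because the LSEC signal is only an upper bound, Mmp9 was at least 215-fold higher in HAK-1B TEC, at least 379-fold in Hepa1-6 TEC and at least 226-fold in KYN-2 TEC. The second probe read 3.72 in LSEC, 11.67, 12.05 and 12.05 in the TECs in the same order, and 2.93 in the cultured cells. It gave at least 127-fold, 166-fold and 165-fold. These bounds hold for this normalization only. Under normexp background correction the log2 ratios of the brighter probe were 5.86, 6.70 and 5.97 in the same order, smaller than its bounds. Both probes placed Mmp9 at close to the same level in the 3 tumors. The brighter probe ranged over 0.82 on the log2 scale among the TECs, where the median range over 27820 probes was 0.92.

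Mmp8, the neutrophil collagenase, was the member most alike in the 3 tumors. Its log2 signal was 5.10 in LSEC, 9.85 in HAK-1B TEC, 9.86 in Hepa1-6 TEC, 9.83 in KYN-2 TEC and 2.71 in cultured Hepa1-6 cells, where it was not well above background. The TECs differed by 0.04 among themselves, a range smaller than that of 99.8% of the probes well above background on all 3. Against LSEC, Mmp8 was 26.9-fold, 27.2-fold and 26.5-fold higher in the HAK-1B, Hepa1-6 and KYN-2 TECs. The mean log2 ratio was 4.75 ± 0.02 (SD, n = 3 tumor lines), and under normexp background correction the mean was 3.24. The LSEC signal lay near the lowest level well above background on that array (4.68).

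Neutrophils store Mmp8 and Mmp9, and 13 other neutrophil genes were read beside them. Of these, 1 was called higher in KYN-2 TEC, 7 in Hepa1-6 TEC and 10 in HAK-1B TEC, with median log2 ratios of 1.07, 3.31 and 4.57. Their summed signal was 94374 in LSEC, 79927 to 221486 in the TECs and 39536 in cultured Hepa1-6 cells, and Csf3r, at a log2 signal of 15.17 or more on all 5 arrays, gave most of it in LSEC. The 4 markers not well above background in LSEC were Ly6g, Cxcr2, Ngp and Ltf. S100a8, a calcium-binding protein abundant in neutrophils, had log2 signals of 7.82 in LSEC and 14.86, 12.19 and 9.44 in the HAK-1B, Hepa1-6 and KYN-2 TECs. S100a9, its partner, read 9.46, 16.46, 14.05 and 10.61 on the same arrays. Ly6g, the surface marker of mouse neutrophils, was not well above background in LSEC or KYN-2 TEC and read 6.12 and 7.10 in the HAK-1B and Hepa1-6 TECs. Its highest value on the 5 arrays was 9.74, in cultured Hepa1-6 cells. Il1r2, the decoy receptor of interleukin-1, was the list's 1 gene called higher in all 3 TECs, at 119.9-fold, 80.1-fold and 22.3-fold. The part of neutrophil RNA in the 2 MMP values was not tested.

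Mmp12, the macrophage elastase, was higher in each TEC, with a wide spread between tumors. Its brightest probe had a log2 signal of 7.53 in LSEC, 10.38 in HAK-1B TEC, 12.41 in Hepa1-6 TEC, 14.31 in KYN-2 TEC and 4.21 in cultured Hepa1-6 cells, where it was not well above background. The KYN-2 tumor stood highest and the HAK-1B tumor lowest, 15.3-fold apart, and 1.33% of probes well above background on all 3 TEC arrays had a larger range. The ratio to LSEC was 7.18-fold, 29.4-fold and 110-fold in the HAK-1B, Hepa1-6 and KYN-2 TECs. In HAK-1B TEC this probe just missed the rule with a Z-score of 1.99, and the call there rests on the other 2 probes, at 10.1-fold and at least 10.1-fold. The third probe was not well above background in LSEC, and its mean below uses the LSEC signal as measured. The 3 probes gave mean log2 ratios of 4.83 ± 1.97, 5.19 ± 2.06 and 5.12 ± 2.24 (SD, n = 3 tumor lines), and kept the same order of tumors.

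Of the 15 macrophage markers, 3 were called higher and 4 lower in HAK-1B TEC, 1 higher in Hepa1-6 TEC, and 2 higher and 1 lower in KYN-2 TEC. Their summed signal was 941697 in LSEC, 536984 to 1108220 in the TECs and 3125.3 in cultured cells, and their median log2 ratios were 0.54, -0.79 and -0.35. The list's genes did not move together: 6 were higher than LSEC in all 3 TECs and 4 lower in all 3, and the median mixes them. Arg1, the arginase of alternatively activated macrophages, was the list's 1 gene called higher in all 3 TECs, at 175-fold, 88.2-fold and 214-fold. Clec4f, a marker of Kupffer cells, had log2 signals of 17.07 in LSEC and 11.50, 15.05 and 14.45 in the HAK-1B, Hepa1-6 and KYN-2 TECs. The part of macrophage RNA in the Mmp12 values was not tested.

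Mmp13, collagenase 3, was high in 2 of the 3 tumors. Its log2 signal was 8.97 in LSEC, 8.70 in HAK-1B TEC, 11.51 in Hepa1-6 TEC, 13.41 in KYN-2 TEC and 10.39 in cultured Hepa1-6 cells, well above background on all 5 arrays. The HAK-1B tumor lay at the LSEC level and the KYN-2 tumor 26.2-fold above the HAK-1B tumor, the widest range among the members read on all 3. Against LSEC, Mmp13 was 21.7-fold higher in KYN-2 TEC, which met the rule, and 5.79-fold higher in Hepa1-6 TEC, which did not. The order of the tumors was that of Mmp12, its neighbour on chromosome 9. Its mean log2 ratio was 2.23 ± 2.37 (SD, n = 3 tumor lines).

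Mmp2, gelatinase A, stood apart in the HAK-1B tumor. Its log2 signal was 4.64 in LSEC, 8.94 in HAK-1B TEC, 5.53 in Hepa1-6 TEC, 6.91 in KYN-2 TEC and 2.75 in cultured Hepa1-6 cells. It was not well above background in LSEC or the cultured cells. Mmp2 was at least 19.2-fold higher in HAK-1B TEC, which met the rule, at least 1.80-fold in Hepa1-6 TEC and at least 4.70-fold in KYN-2 TEC. Under normexp background correction its log2 ratios were 2.55, 0.28 and 1.00 in the same order, smaller than these bounds.

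Mmp14, which activates the precursor of Mmp2, had log2 signals of 9.51 in LSEC, 11.36 in HAK-1B TEC, 9.43 in Hepa1-6 TEC, 9.73 in KYN-2 TEC and 8.87 in cultured cells. It too was highest in the HAK-1B tumor, at 3.61-fold over LSEC, and this did not meet the rule. The other tumors lay within 0.23 of LSEC on the log2 scale. Mmp2 and Mmp14 thus had their highest value on the array where Mmp12 and Mmp13 had their lowest TEC value.

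Mmp3, stromelysin 1, was the 1 MMP of the 7 with its highest signal in the cancer cells. Its log2 signal was 3.31 in LSEC, 4.42 in HAK-1B TEC, 3.35 in Hepa1-6 TEC, 3.18 in KYN-2 TEC and 7.92 in cultured Hepa1-6 cells. It was well above background in the cultured cells and, at a low signal, in Hepa1-6 TEC. No fold against LSEC is given for the TECs, since the values lie at or near background.

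**Figure D2:**
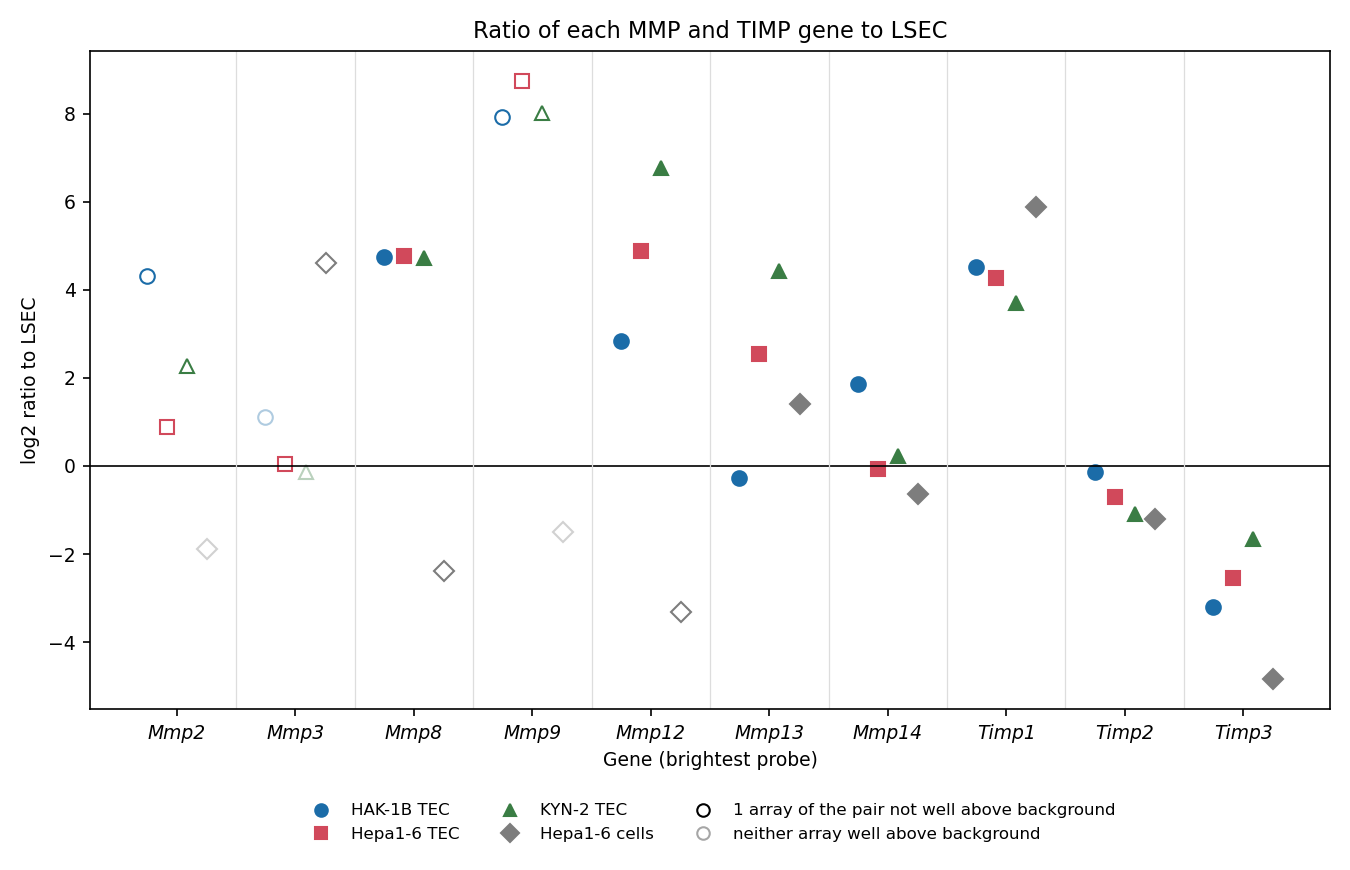
Log2 ratio to LSEC (vertical axis) of the brightest probe of each gene in the 3 TECs and in cultured Hepa1-6 cells; open points mark ratios in which 1 array was not well above background, and faint open points those in which neither was. Mmp9 stands highest in the TECs, at 7.93 to 8.75, Mmp8 points coincide, and Timp3 lies below 0 in all 4.

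Timp1, the inducible inhibitor, was higher in all 3 TECs. Its log2 signal was 7.33 in LSEC, 11.85 in HAK-1B TEC, 11.61 in Hepa1-6 TEC, 11.02 in KYN-2 TEC and 13.22 in cultured Hepa1-6 cells, well above background throughout. The TECs lay close together and below the cultured cells. Against LSEC, Timp1 was 22.9-fold, 19.4-fold and 12.9-fold higher in the HAK-1B, Hepa1-6 and KYN-2 TECs, with a mean log2 ratio of 4.16 ± 0.42 (SD, n = 3 tumor lines). In cultured Hepa1-6 cells it was 59.4-fold higher than in LSEC. The paper calls contamination by cancer cells inevitable with this isolation and removed cancer cell-related genes from its list, a step not taken here. The part of cancer cell RNA in the Timp1 values was not tested.

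Timp3, the inhibitor that stays bound to the matrix, was lower in the TECs. Its brightest probe had a log2 signal of 15.18 in LSEC, 11.98 in HAK-1B TEC, 12.65 in Hepa1-6 TEC, 13.53 in KYN-2 TEC and 10.33 in cultured cells. LSEC was the highest of the 5 arrays and the cultured cells the lowest. Timp3 was 9.21-fold lower in HAK-1B TEC, which met the rule, and 5.81-fold and 3.15-fold lower in Hepa1-6 TEC and KYN-2 TEC, which did not. The second probe read 13.82, 11.11, 11.94, 12.91 and 10.07 on the same 5 arrays and kept the order. The third, a dim probe designed on an Ensembl transcript, read 6.94 in LSEC, 3.72 in HAK-1B TEC (not well above background), 6.37 in Hepa1-6 TEC, 5.32 in KYN-2 TEC and 6.90 in the cultured cells. That probe was also lower in each TEC than in LSEC, but did not show the low value in the cultured cells.

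Endothelial markers were lower in the TECs as well. Of 12 pan-endothelial markers, 7, 3 and 2 were called lower in the HAK-1B, Hepa1-6 and KYN-2 TECs. Their median log2 ratios were -2.85, -2.58 and -1.63. Those of the brightest Timp3 probe were -3.20, -2.54 and -1.66, and those of the second -2.71, -1.89 and -0.91. The third, not well above background in HAK-1B TEC, had -3.22, -0.57 and -1.62, in another order. Of 10 LSEC markers, 6, 5 and 5 were called lower in these tumors, with median log2 ratios of -3.79, -3.11 and -2.66 and a summed signal of 861587 in LSEC, 92782 to 119606 in the TECs and 357 in cultured cells. Whether the lower Timp3 signal went with a smaller share of endothelial RNA was not tested.

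Timp2 had no settled direction, because its 2 probes disagreed. The brighter probe had a log2 signal of 15.32 in LSEC, 15.19 in HAK-1B TEC, 14.62 in Hepa1-6 TEC, 14.24 in KYN-2 TEC and 14.12 in cultured cells. The second, whose coordinates cross an intron, read 11.82, 12.74, 12.67, 12.65 and 12.89 on the same arrays. The first was lower and the second higher than LSEC in each TEC, with mean log2 ratios of -0.64 ± 0.48 and 0.87 ± 0.04 (SD, n = 3 tumor lines). In HAK-1B TEC the sign of the first probe turned to 0.36 when arrays were scaled to their 75th percentile. Neither probe met the rule in any comparison.

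**Figure D3:**
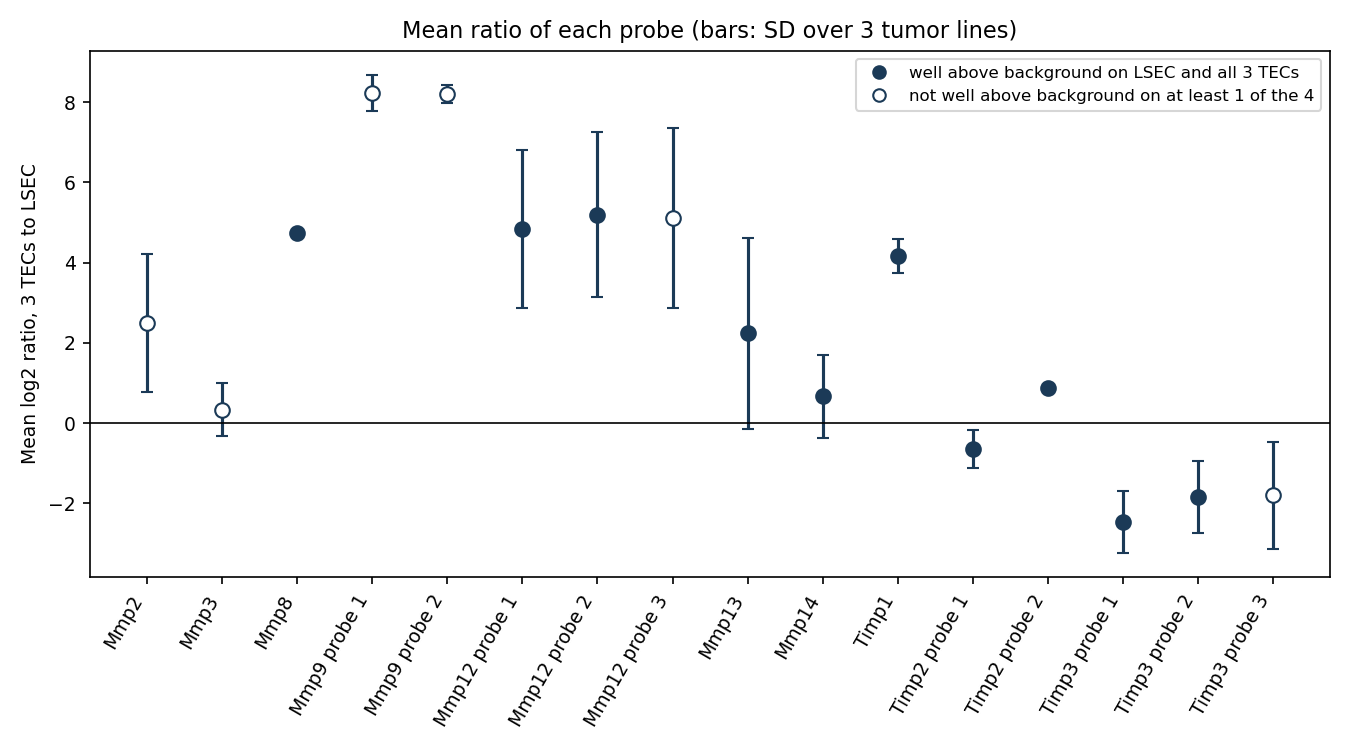
Mean log2 ratio of the 3 TECs to LSEC (vertical axis) for each of the 16 probes, with bars of 1 SD over the 3 tumor lines; open points had at least 1 of the 4 arrays not well above background. The probes of Mmp9, of Mmp12 and of Timp3 stand together, and the 2 Timp2 probes lie on opposite sides of 0.

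Enzymes and inhibitor were compared as differences of log2 ratios on the same array, which leave the levels of different probes out. The ratio of Mmp9 to LSEC exceeded that of Timp1 by 3.42, 4.48 and 4.32 in the HAK-1B, Hepa1-6 and KYN-2 TECs. These values use the dim LSEC signal of Mmp9 as measured. For Mmp8 the excess was 0.23, 0.49 and 1.04, and it depended on the background correction. Under normexp the log2 ratios of Mmp8 were 3.23, 3.26 and 3.23, and those of Timp1 4.04, 3.82 and 3.23. Mmp8 thus did not exceed Timp1 in any TEC under that setting. For Mmp12 the difference ran from -1.67 in HAK-1B TEC over 0.60 to 3.09 in KYN-2 TEC, and for Mmp13 from -4.79 over -1.74 to 0.75. Thus Mmp12 and Mmp13 were ahead of Timp1 in the KYN-2 tumor and behind it in the HAK-1B tumor.

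The median log2 ratio of the 10 members was 2.35, 1.71 and 2.98 in the HAK-1B, Hepa1-6 and KYN-2 TECs, with 7 of 10 higher than in LSEC on each. With ratios to a dim array set at their bound the medians were 2.35, 1.69 and 2.96. The median over 26771 genes was -0.03, 0.07 and -0.03. Scaling to the 75th percentile moved the median of all probes kept to -0.12, 0.42 and -0.09 in the TECs and to 0.44 in the cultured cells.

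Hepa1-6 TEC was also set against cultured cells of the same line. All 15 macrophage and all 13 neutrophil markers were well above background in Hepa1-6 TEC. The contrast thus cannot separate endothelial cells from other cells of the tumor, and culture cannot be told apart from slide. Cultured cells of the human lines were not analysed here. Of the 10 members, Mmp8, Mmp9 and Mmp12 were called higher in Hepa1-6 TEC than in cultured Hepa1-6 cells, 3 members against 5.52% of all genes. Mmp3 was the 1 member called lower, against 2.2%, and that call was lost with scaling to the 75th percentile and with normexp. A fold of 21.1 was needed to be called higher here.

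Mmp9 was at least 156-fold higher in Hepa1-6 TEC than in the cultured cells, Mmp12 at least 87.6-fold and Mmp8 at least 15.0-fold. None of the 3 was well above background in culture. Mmp3 was 23.7-fold lower in Hepa1-6 TEC, where its log2 signal of 3.35 lay near the lowest level well above background (2.85). The size of this fold depended on the processing. Against LSEC, the log2 ratios of Mmp3 in Hepa1-6 TEC and cultured cells were 0.04 and 4.61 here. They were 2.05 and 5.14 with scaling to the 75th percentile, and -0.07 and 1.90 with normexp. Timp1 was 3.07-fold lower in Hepa1-6 TEC than in the cultured cells, and Timp3 was 4.96-fold higher by its brightest probe. Mmp13, well above background on both arrays, was 2.17-fold higher in the TECs. None of these last 3 ratios met the rule.

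Against LSEC, cultured Hepa1-6 cells were called higher for Timp1 alone, 1 member against 2.99% of all genes, and 0 members were called lower against 5.23%. The fold needed was 39.8 upward and 51.2 downward. Mmp3 at least 9.46-fold higher and Timp3 28.8-fold lower did not reach it. The median log2 ratio of the 10 members in the cultured cells was -1.35, with 3 higher than LSEC, where the median of all genes was 0.09.

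The 3 TECs were also set against LSEC in 1 limma fit, in which the lone LSEC array is assumed to vary as the TECs do, with 2 residual degrees of freedom. After Benjamini-Hochberg adjustment over all 42112 probes, limma called 0 of 26993 genes (0%), and so 0 members. The smallest adjusted p of limma over all probes was 0.443, and those of the 16 member probes ran from 0.443 to 0.918. Without adjustment 3581 probes (8.50%) had a p under 0.05, among them 8 of the 16 member probes, which belong to Mmp8, Mmp9, Mmp12, Timp1 and Timp3. The ratios above are therefore values of single arrays without support from a test.

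Of 16 other MMP genes on the array, 0 were called in all 3 TECs, where the share of all genes was 0.65% higher and 1.2% lower. Each tumor had 1 called higher, a different gene in each, named after their values were seen: Mmp25 in HAK-1B TEC, Mmp7 in Hepa1-6 TEC, and Mmp10 in KYN-2 TEC. The shares of all genes called higher were 3.6%, 5.38% and 4.5% in the same order, so 1 of 16 lies near them. The Mmp7 call rests on the dimmer of its 2 probes. Its brightest probe was 3.11-fold higher in Hepa1-6 TEC and 3.31-fold higher in HAK-1B TEC, and met the rule in neither. Mmp10, stromelysin 2, lies in the stromelysin family with Mmp3. Its log2 signal was 8.74 in KYN-2 TEC and 7.66 in cultured cells, against 2.32 in LSEC and 4.03 in HAK-1B TEC, with a signal between these last values in Hepa1-6 TEC. Mmp27 was the 1 called lower in HAK-1B TEC, at 15.0-fold, against 4.51% of all genes. Mmp11 and Mmp15 had mean log2 ratios of 1.63 ± 0.25 and 1.60 ± 0.26 (SD, n = 3 tumor lines). The median log2 ratios of the 16 genes were -0.0038, 0.48 and 0.43 in the TECs.

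Among 13 other inhibitors and binding partners, Thbs1, the secreted matrix protein thrombospondin 1, was the 1 gene called higher in all 3 TECs, at 9.31-fold, 11.7-fold and 8.04-fold. Lcn2, which binds Mmp9, read 8.01 in LSEC and 11.98, 11.27 and 7.96 in the HAK-1B, Hepa1-6 and KYN-2 TECs. It was therefore not high in the KYN-2 tumor where Mmp9 was. Pzp, a broad protease inhibitor of the plasma, had a mean log2 ratio of -2.56 ± 2.14 (SD, n = 3 tumor lines). Timp4 was not well above background except in Hepa1-6 TEC, at 6.18. The list's median log2 ratios were 0.31, 0.05 and 0.51.

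Of 11 genes of the plasmin system, which cuts MMP precursors, 4 were called higher and 1 lower in HAK-1B TEC, 2 higher in Hepa1-6 TEC and 6 higher in KYN-2 TEC. Plat, the tissue plasminogen activator, was called higher in each, at 13.3-fold, 41.6-fold and 20.0-fold. Plaur, the urokinase receptor, was 17.6-fold, 9.06-fold and 10.8-fold higher. The list's median log2 ratios were 2.05, 2.13 and 3.02.

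Of 12 genes of matrix proteins that MMPs cut, 4, 7 and 5 were called higher in the HAK-1B, Hepa1-6 and KYN-2 TECs (0 lower), with median log2 ratios of 1.39, 3.41 and 2.10. Col1a1, a chain of collagen I, was not well above background in LSEC, and the mean of the 3 TECs was at least 59.7-fold above it. Fn1, fibronectin, was 85.0-fold, 50.4-fold and 28.1-fold higher, and Spp1, osteopontin, 71.2-fold, 13.0-fold and 65.4-fold. Of 12 fibroblast and stellate markers, 1, 3 and 4 were called higher in the 3 tumors, with a summed signal of 13235 in LSEC, 24328 to 47720 in the TECs and 125731 in cultured cells, where most of it came from Dcn. Col1a1, Col1a2 and Col3a1 stand in both lists, and Lrat, a marker of quiescent stellate cells, was well above background in Hepa1-6 TEC alone, at 4.16. The part of fibroblast RNA in the Timp1 and Mmp2 values was not tested.

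Of 16 cytokines and transcription factors that act on MMP genes, Fosl1, an AP-1 subunit, was the 1 called higher in all 3 TECs. It was not well above background in LSEC (3.19), read 6.50, 6.94 and 6.69 in the TECs and 11.29 in cultured cells, and the mean of the 3 TECs was at least 4.09-fold above LSEC. Osm, an interleukin-6 family cytokine, was 24.6-fold, 7.09-fold and 11.1-fold higher, and Fosl2 had a mean log2 ratio of 2.18 ± 1.13 (SD, n = 3 tumor lines). The AP-1 genes of the list did not move together. Fos and Jun were lower than LSEC in each TEC, with mean log2 ratios of -0.84 ± 0.50 and -1.45 ± 0.08. Junb had 0.06 ± 0.39 (SD, n = 3 tumor lines), and Fos, Jun and Junb were not called in any TEC. Fos and Jun read 16.40 and 16.68 in LSEC, far brighter than Fosl1. In all, 4, 1 and 3 of the 16 were called higher in the HAK-1B, Hepa1-6 and KYN-2 TECs. Ets1 was the 1 called lower, in Hepa1-6 TEC. The list's median log2 ratios were 1.08, 0.28 and 0.48.

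**Figure D4:**
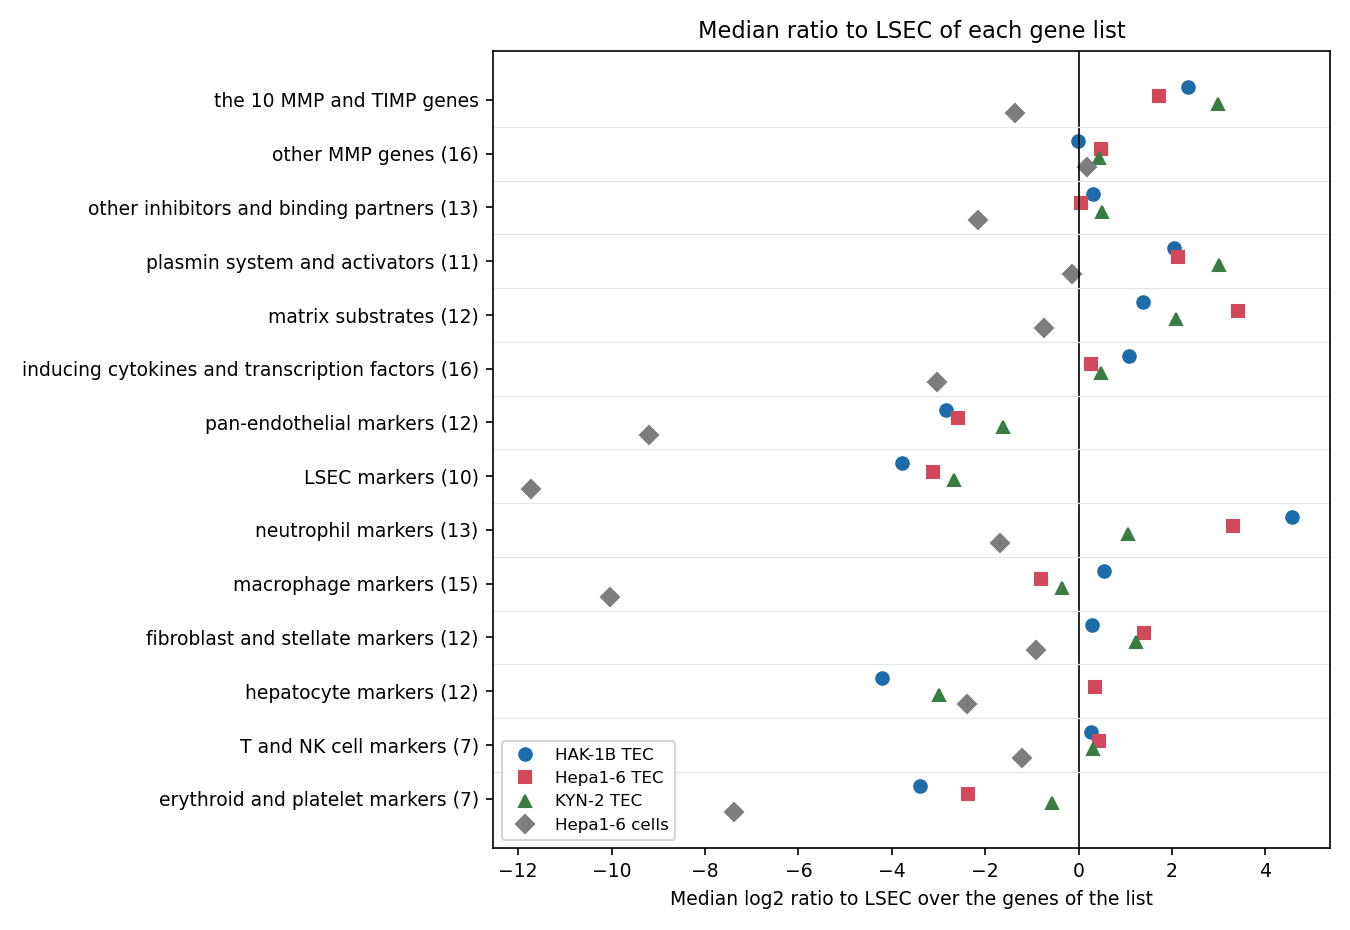
Median log2 ratio to LSEC (horizontal axis) over the genes of each list, with the number of genes on the array, in the 3 TECs and in cultured Hepa1-6 cells. The 10 MMP and TIMP genes lie at 1.71 to 2.98 in the TECs, the other MMP genes near 0, the plasmin system and matrix lists above 0, and both endothelial lists below 0. Members and lists were chosen with earlier results of these data known, so the distance between them is partly set by the choice.

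Other marker lists moved in their own ways. The 12 hepatocyte markers had median log2 ratios of -4.21, 0.36 and -2.98 in the HAK-1B, Hepa1-6 and KYN-2 TECs. The 7 T and NK cell markers on the array had medians of 0.26, 0.44 and 0.32, and the 7 erythroid and platelet markers -3.39, -2.36 and -0.57.

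The genes whose pattern over the 5 arrays was nearest to a member were sought among 19450 genes well above background on the 3 TEC arrays, by the root mean square difference of centred log2 signals. For Mmp9 they were Arg1 (0.93), Il1r2 (1.27), a decoy receptor for interleukin-1, and Slc16a3 (1.35), a lactate transporter. For Timp1 they were Pxylp1 (0.33), 4930557B15Rik (0.34) and Cd276 (0.35), each highest in cultured Hepa1-6 cells, as Timp1 was, and, unlike Timp1, not well above background in LSEC. With 5 arrays these distances are a description.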

How the data were processed

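RNA of 5 samples was amplified, labelled with Cy3 and hybridized to a 60-mer mouse array. The authors deposited spot intensity values on a linear scale, background-subtracted within each array by Agilent Feature Extraction (10.7.1.1 in the file headers, 9.5.1.1 in the submitters' processing notes), with flags per spot, and a table of intensity values whose columns were quantile normalized. Here control spots were left out, spots of a probe were averaged, and quantile normalization was applied to their log2 values across all 5 arrays. LincRNA probes were left out of calls, and probes with no present flag on either array of a pair were dropped. A gene was called when 1 of its probes met the rule of the methods, and gene ratios use the brightest probe. The joint fit of the TECs and LSEC used limma 3.58.1 under R 4.3.3. Scripts were tested on simulated data, with Python 3.11.15. Of 200 probes changed in all 3 simulated TECs, the rule of size recovered 200 and limma 195. The rule also made 160 wrong calls among 42112 probes, and limma 11. The planted changes were large, sat in probes of middle to high signal, and were given a spread reduced from that of the real TEC arrays. These counts therefore check that the scripts run as meant and do not give the power on the real arrays. A floor, the lowest signal well above background on an array, gave the bounds. The bounds hold for this normalization and not for other background corrections. The number of arrays limits the precision.

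The 10 members and the 13 gene lists were chosen with earlier results of these data known. Named genes of a list are those called in all 3 TECs and, where fewer than 3 were, the largest mean ratios among genes well above background on LSEC and all TEC arrays. Of the 16 probe accessions, 15 matched the RefSeq table with the same symbol. One gene that this rule names is not reported here.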

Additional observations from a re-analysis of the deposited data

How the results depend on the processing

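No paired analysis was possible because there was a single array in every group. The count of members called was recomputed 57 times under other settings and 48 of these stayed within 1.5 times. The other 9 moved, and the cause was not tested. Without the Z-score, 8 members were called in Hepa1-6 TEC, 8 in KYN-2 TEC, 8 in cultured cells against LSEC, 8 in Hepa1-6 TEC against cultured cells, and 7 in all 3 TECs. The share of all genes is not given for these other settings, so the counts cannot be set against it. Cultured cells against LSEC had 2 members called with normexp, 2 with presence needed on both arrays and 3 with no filter on flags. Presence on both arrays left 1 in Hepa1-6 TEC against cultured cells, by construction, since Mmp8, Mmp9 and Mmp12 are dim in culture. In all 3 TECs, 3 members were called with scaling to the 75th percentile (without Timp1), with presence on both arrays (without Mmp9) and with the brightest probe alone (without Mmp12). Mmp3 was not called lower in Hepa1-6 TEC than in cultured cells under 75th percentile scaling or normexp. Leaving out each TEC array in turn left 4 to 4 members called in all the remaining TECs, and 0 to 0 called by limma. Of 80 recomputed mean log2 ratios over the TECs, 72 stayed within 1 SD, 6 moved in size and 2 reversed. Mmp3, at 0.34, ran from -0.046 without the HAK-1B TEC array to 0.57 without the KYN-2 TEC array, and Timp2 turned from -0.64 to 0.11 with the mean of its probes. With normexp the mean of Mmp9 fell from 8.23 to 6.17 and that of Timp1 from 4.16 to 3.69. A block for slide could not be run, since LSEC and TEC arrays shared no slide. Signals near background, such as Mmp2, Mmp3, Mmp8 and Mmp9 in LSEC, limit the size of the ratios.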
